A study of Mus musculus with 2 samples.

Results

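Polycomb proteins and the enzymes that write, read and erase lysine methylation on histone H3 were examined in primordial germ cells (PGCs) of the mouse, from which eggs and sperm later develop. The genes were taken from a list of 59 symbols and matched to the rows of the expression table, which held 18877 genes. Rows were found for 58 symbols. Kdm4a, a demethylase of H3K9 and H3K36, was the 1 symbol without a row and was not analysed here. RNA-seq was performed on PGCs of C57BL6 embryos at embryonic day 9.5 (E9.5), isolated by means of an SSEA1 antibody and left untreated. The 2 libraries were biological replicates of this 1 group, and the series held no library of another stage or genotype to compare them with. The methods describe the embryos as female and name sorting by flow cytometry for CD61 and SSEA1 or by magnetic beads for SSEA1, without saying which was used here. Levels are the authors' TPM (transcript abundance, reads per base of exon scaled to a fixed total per library), given for replicate 1 and then replicate 2.

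Polycomb repressive complex 2 (PRC2) methylates lysine 27 of histone H3 (H3K27), a mark of silenced developmental genes, and Polycomb repressive complex 1 (PRC1) ubiquitinates histone H2A and compacts chromatin at many of the same genes. Methylation of H3K9 marks heterochromatin and repressed genes, methylation of H3K4 marks active and poised promoters, and methylation of H3K36 and H3K79 marks transcribed gene bodies. Migrating PGCs are known for a loss of H3K9 dimethylation and a gain of H3K27 trimethylation while their DNA is demethylated. The genes were therefore arranged by mark, as 10 genes of H3K27 methylation (PRC2 and the demethylase Kdm6b), 14 of PRC1, 14 of H3K9, 15 of H3K4, and 6 of H3K36 and H3K79, and within each mark by role.

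Recovered depth was 15912469 reads in replicate 1 and 5458687 in replicate 2, so values of replicate 2 carry the wider counting error. Median recovered reads per listed gene were 388 and 140.5, from 4 to 8916 in replicate 1 and from 2 to 2578 in replicate 2. All 10 PGC markers examined reached 1 TPM in both libraries, from 5013 and 5075 TPM for Dppa3 to 1.54 and 1.46 TPM for Pou5f1, the lowest of them. Erythroid transcripts were also abundant, with 4 of 5 genes at 1 TPM or more in both libraries, summed levels of 3537 and 3331 TPM, and Hba-x at 2331 and 2065 TPM. Markers of macrophages (4 genes) summed to 19.4 and 9.53 TPM, endothelium (5 genes) to 12.9 and 11.0 TPM, and mesenchyme (5 genes) to 2.37 and 3.95 TPM, with Lum listed at 0 in both libraries. Most of the endothelial sum was Pecam1, at 8.23 and 9.99 TPM, and the next gene by mean, Emcn, was at 2.12 and 0 TPM. The Y-linked gene Ddx3y was at 7.32 and 5.35 TPM, against the description of the embryos as female. The part of other cells in the levels below was not tested, and in a mixed sample fewer cells of a type and less RNA per cell cannot be told apart.

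Most of the histone methylation regulators were detected, with mean levels from 0.139 to 150 TPM. Of the 58 genes, 46 (79.3%) reached 1 TPM in both libraries, compared with 60.0% of all genes and 69.5% of the protein-coding genes in the table. A level of 10 TPM in both was reached by 20 genes (34.5%), compared with 29.4% of protein-coding genes. The genes under 1 TPM in at least 1 library were Kdm6b, Ring1, Pcgf2, Cbx8, Rybp, Kdm4b, Setd1a, Setd1b, Setd7, Kmt2b, Kmt2d and Kdm2a. The median of the 58 genes on the log2(TPM + 1) scale was 2.88 and 2.69 (mean 2.79 ± 0.139, SD, n = 2), and that of protein-coding genes was 2.29 and 2.21.

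**Figure D1:**
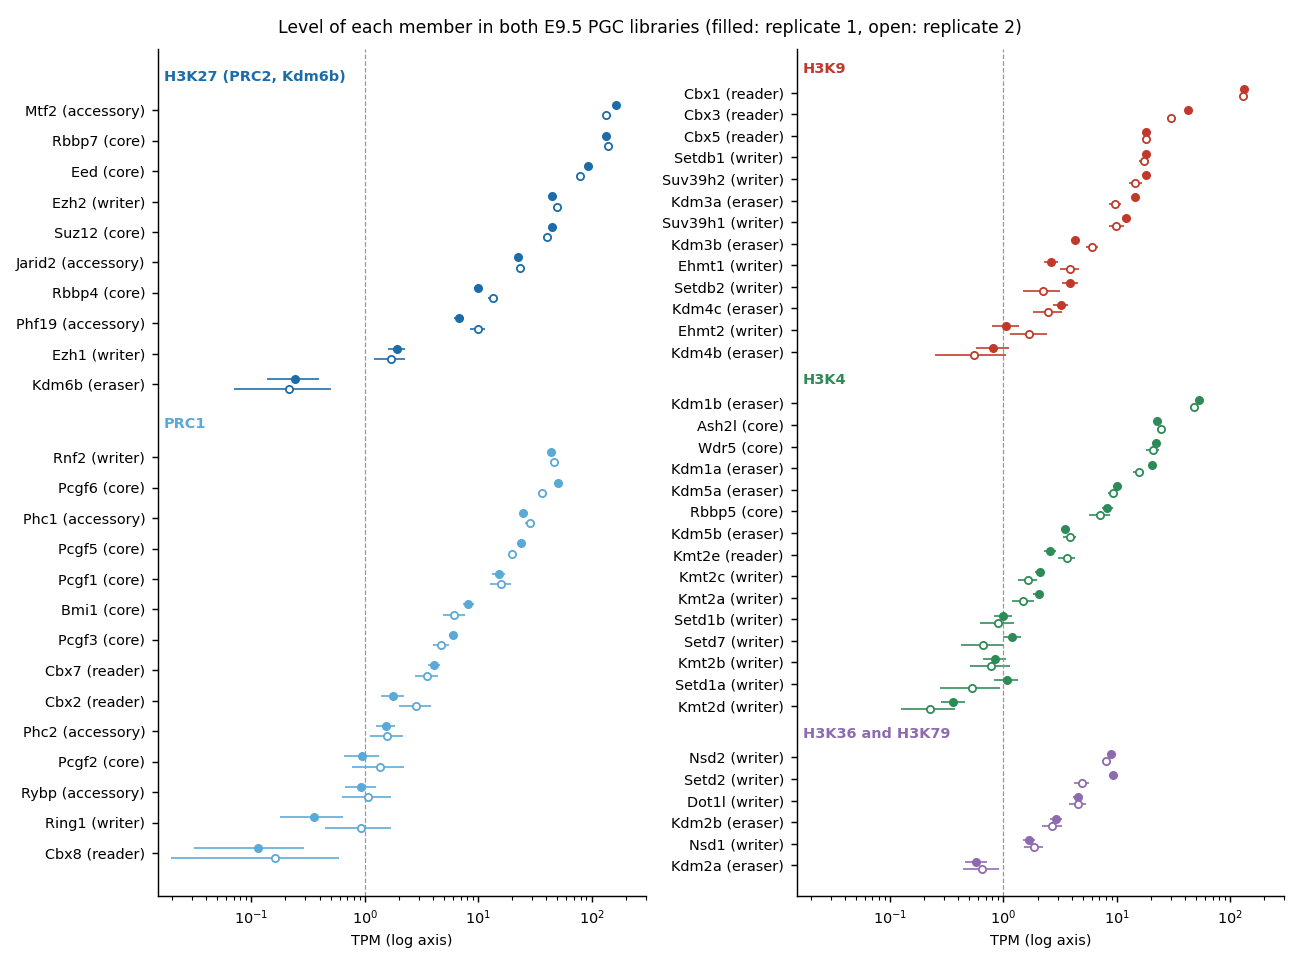
TPM of each of the 58 genes with a row (horizontal log axis), arranged by mark and ordered by mean level, with filled circles for replicate 1, open circles for replicate 2 and bars for the exact Poisson 95% interval of the recovered reads. Subunits of PRC2 and the chromodomain protein gene Cbx1 sit furthest right, and the H3K4 methyltransferases Kmt2a to Kmt2d, Setd1a, Setd1b and Setd7 lie at or below 2.08 TPM in both libraries.

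By median, the H3K27 set, made up of PRC2 subunits and Kdm6b, was the highest, although its place depended on which genes represent a mark (below). In this set 6 of the 10 genes were above 10 TPM in both libraries, compared with 29.4% of protein-coding genes. Ezh2, the catalytic subunit of most PRC2 in dividing cells, was at 44.6 and 49.4 TPM. Its paralog Ezh1, a weaker methyltransferase typical of resting cells, was at 1.92 and 1.69 TPM. Ezh2 thus exceeded Ezh1 23.2-fold in replicate 1 and 29.3-fold in replicate 2, and their counting intervals were separate in each library. Eed, which binds trimethylated H3K27 and stimulates the enzyme, was at 93.6 and 78.5 TPM, and Suz12, which holds the complex together, at 44.8 and 40.8 TPM. Among these 3 obligatory partners Eed was the highest in both libraries, whereas the intervals of Ezh2 and Suz12 overlapped in replicate 1 and were separate in replicate 2. Ezh2 lies on chromosome 6 (chr6:47530139-47595341, minus strand) and Ezh1 on chromosome 11 (chr11:101191115-101226463, minus strand) of GRCm38.

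The histone-binding subunits of PRC2, Rbbp7 and Rbbp4, also serve histone deacetylase complexes. X-linked Rbbp7 was at 133 and 138 TPM, whereas Rbbp4 was at 9.94 and 13.5 TPM. Rbbp7 was the higher gene in both libraries, by 13.4-fold and 10.2-fold. The exons of Rbbp4 overlap genes on the opposite strand over 18.0% of their length, and strand handling was not stated, so its value is uncertain.

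Accessory subunits direct PRC2 to CpG-rich DNA or to nucleosomes. Mtf2 (Pcl2), a DNA-binding subunit of the Polycomb-like family, had the highest mean of all 58 genes, at 165 and 135 TPM, although Rbbp7 was above it in replicate 2. Its relative Phf19 (Pcl3) was at 6.78 and 9.91 TPM. Jarid2, the defining subunit of the alternative PRC2 assembly, was at 22.4 and 23.4 TPM. In both libraries Mtf2 was thus above Jarid2 and Phf19, and above the catalytic subunit itself. The demethylase Kdm6b (Jmjd3), which removes H3K27 methylation, was the lowest gene of the set at 0.242 and 0.215 TPM. Only 16 and 5 reads lay behind these values, with counting intervals (exact Poisson, 95%) from 0.138 to 0.393 TPM and from 0.0698 to 0.502 TPM. Kdm6a (Utx), the other H3K27 demethylase, was not among the 59 listed symbols and was at 7.29 and 6.78 TPM.

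In PRC1, Rnf2 and Phc1 stood far above their paralogs Ring1 and Phc2. Rnf2 (Ring1b), the ubiquitin ligase of most PRC1 (chr1:151458004-151500955, minus strand), was at 43.6 and 46.4 TPM. Ring1 (Ring1a, chr17:34020792-34024680, minus strand) was at 0.357 TPM in replicate 1, from 11 reads, and at 0.922 TPM in replicate 2, from 10 reads. The ratio of Rnf2 to Ring1, at 122 and 50.3, was the highest of the 19 pairs of related genes compared, and the lower gene rested on few reads.

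The 250 bases before the transcription start of both ligase genes are printed because their levels differed most, and those of Ezh2 and Ezh1 because they are the catalytic pair of PRC2. Sequences are from RefSeq on GRCm38.p6, 5′ to 3′ on the strand of the gene, with each CG dinucleotide in capitals. The windows are chr1:151500992-151501241 for Rnf2, chr17:34024681-34024930 for Ring1, chr6:47595031-47595280 for Ezh2 and chr11:101226464-101226713 for Ezh1, all on the minus strand.
Rnf2: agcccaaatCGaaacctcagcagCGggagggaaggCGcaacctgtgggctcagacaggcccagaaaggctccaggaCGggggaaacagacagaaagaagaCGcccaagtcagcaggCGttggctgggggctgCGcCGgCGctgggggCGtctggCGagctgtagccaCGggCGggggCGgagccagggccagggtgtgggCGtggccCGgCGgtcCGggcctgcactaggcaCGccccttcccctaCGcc
Ring1: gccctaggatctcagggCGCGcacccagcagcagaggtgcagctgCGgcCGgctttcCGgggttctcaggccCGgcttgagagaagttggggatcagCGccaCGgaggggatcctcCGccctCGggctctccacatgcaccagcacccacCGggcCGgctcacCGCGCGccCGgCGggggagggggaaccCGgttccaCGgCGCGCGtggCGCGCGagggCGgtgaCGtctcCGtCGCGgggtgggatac
Ezh2: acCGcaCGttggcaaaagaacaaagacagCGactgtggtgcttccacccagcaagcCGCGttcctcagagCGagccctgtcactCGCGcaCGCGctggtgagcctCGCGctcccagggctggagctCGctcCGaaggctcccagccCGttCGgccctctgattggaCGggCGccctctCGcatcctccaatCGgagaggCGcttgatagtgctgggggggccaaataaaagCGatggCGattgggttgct
Ezh1: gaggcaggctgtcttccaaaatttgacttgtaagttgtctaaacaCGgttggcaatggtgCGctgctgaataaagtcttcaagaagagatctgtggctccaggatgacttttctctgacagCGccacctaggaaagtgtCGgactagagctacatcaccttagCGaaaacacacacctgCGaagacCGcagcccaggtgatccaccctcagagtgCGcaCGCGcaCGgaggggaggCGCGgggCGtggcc
The window of Rnf2 held 20 CG dinucleotides and that of the much lower Ring1 held 30. That of Ezh2 held 23, compared with 14 for Ezh1. Within these pairs the higher gene had fewer CG in one case and more in the other.

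Promoter windows could be matched for 44 of the 58 genes, as 60 windows, since some genes have several starts. Of these, 49 (81.7%) were CpG-rich (GC content above 50% and CpG observed over expected above 0.6), compared with 59.4% of 12403 windows of protein-coding genes in the table. Over the 33 genes with a single window, CpG observed over expected was nearly unrelated to level (Spearman's rho 0.0084, across genes within the same pair of libraries).

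The PCGF proteins pair with Rnf2 or Ring1 and define the kind of PRC1. Pcgf6, the subunit of the variant complex that represses germ cell genes, was the highest at 50.4 and 36.8 TPM. It was followed by Pcgf5 at 23.7 and 20.0 TPM and Pcgf1 at 15.1 and 15.8 TPM, both subunits of variant complexes. The canonical subunits were lower than these, with Bmi1 (Pcgf4) at 8.18 and 6.17 TPM and Pcgf2 (Mel18) at 0.955 and 1.36 TPM. Pcgf3, also a variant subunit, was at 6.01 and 4.70 TPM, so the variant subunits were not all above the canonical ones. In both libraries the order from Pcgf6 to Pcgf5, Pcgf1, Bmi1, Pcgf3 and Pcgf2 was the same, but in replicate 2 the counting intervals of Pcgf5 and Pcgf1 overlapped, as did those of Bmi1 and Pcgf3.

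The chromodomain proteins that bring canonical PRC1 to methylated H3K27 were at or below 4.09 TPM in both libraries. Cbx7 was at 4.09 and 3.50 TPM and Cbx2 at 1.78 and 2.81 TPM, and their intervals overlapped in replicate 2. Cbx8 was at 0.115 and 0.163 TPM from 4 and 2 reads, and was the lowest of the 58 genes. Phc1, a Polyhomeotic subunit of canonical PRC1, was at 24.6 and 28.4 TPM, and its paralog Phc2 at 1.53 and 1.57 TPM, a difference of 16.1-fold and 18.1-fold. Rybp, a subunit of variant PRC1, was at 0.932 and 1.07 TPM. The sum of the 3 chromodomain genes was 5.98 and 6.48 TPM, compared with 104 and 84.8 TPM for the 6 PCGF genes.

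Among H3K9 regulators, the readers as a set were above the methyltransferases, by a median of 2.28 ± 0.247 on the log2(TPM + 1) scale (SD, n = 2). Of the HP1 proteins, which bind methylated H3K9, Cbx1 (HP1 beta) was the highest at 131 and 129 TPM. Cbx3 (HP1 gamma) was at 42.7 and 30.3 TPM and Cbx5 (HP1 alpha) at 18.0 and 18.1 TPM. The order Cbx1, Cbx3, Cbx5 held in both libraries with separate counting intervals, but Cbx5 was no higher than the methyltransferase Setdb1 in replicate 1. HP1 genes have processed pseudogene copies, and the treatment of reads that match several places was not stated, which makes these values less certain.

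The H3K9 methyltransferases fell into a higher and a lower set. Setdb1, which silences retroelements together with KRAB zinc finger proteins, was at 18.2 and 17.4 TPM. Suv39h2 and Suv39h1, which trimethylate H3K9 in pericentric heterochromatin, were at 18.0 and 14.6 TPM and at 11.9 and 9.88 TPM. Ehmt1 (GLP) and Ehmt2 (G9a), the partners that dimethylate H3K9 in euchromatin, were at 2.62 and 3.83 TPM and at 1.05 and 1.69 TPM. Setdb2 was at 3.87 and 2.22 TPM. In both libraries the counting intervals of Setdb1, Suv39h1 and Suv39h2 lay above those of Ehmt1, Ehmt2 and Setdb2. Intervals of Setdb1 and Suv39h2 overlapped, so the order of these enzymes is not resolved. Ehmt2 rested on 55 and 31 reads.

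The H3K9 demethylases were led by Kdm3a (Jmjd1a), an eraser of mono- and dimethylation, at 14.4 and 9.56 TPM. Kdm3b was at 4.31 and 6.05 TPM and Kdm4c, which acts on trimethylated H3K9, at 3.22 and 2.47 TPM. Kdm4b was at 0.817 and 0.550 TPM from 38 and 9 reads. The median of the 6 methyltransferases exceeded that of the 4 demethylases by 0.75 and 0.55 on the log2(TPM + 1) scale (mean 0.65 ± 0.138, SD, n = 2). Among genes of at most 8000 bp this difference was 2.23, but that limit leaves out Ehmt1 and the higher demethylases Kdm3a and Kdm3b. Only the lower Kdm4b and Kdm4c then stand for the demethylases. Kdm3a was above both Ehmt1 and Ehmt2 in each library. The exons of Kdm3b overlap a gene on the opposite strand over 24.6% of their length, and those of Suv39h1 over 14.6%.

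For H3K4, the methyltransferases were low, and the subunits shared by the SET1 and MLL enzymes among them were not. The 7 methyltransferase genes ranged from 0.359 to 2.08 TPM in replicate 1 and from 0.225 to 1.64 TPM in replicate 2, and together held 8.58 and 6.21 TPM. The highest were Kmt2c (Mll3) at 2.08 and 1.64 TPM and Kmt2a (Mll1) at 2.05 and 1.49 TPM, which did not differ beyond their counting intervals. The others were Setd1b at 0.994 and 0.892 TPM, Setd7 at 1.19 and 0.664 TPM, Kmt2b (Mll2) at 0.844 and 0.779 TPM, Setd1a at 1.07 and 0.528 TPM and Kmt2d (Mll4) at 0.359 and 0.225 TPM. Kmt2d was the lowest of them in both libraries, although its relative Kmt2c was 5.79-fold and 7.27-fold higher. The value of Setd1a is uncertain, since 51.8% of its exonic bases are also annotated to Gm49388 on the same strand. Kmt2e, an MLL relative that binds trimethylated H3K4, was at 2.58 and 3.61 TPM.

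Wdr5, Ash2l and Rbbp5 form the core that every SET1 or MLL enzyme needs for full activity. Ash2l was at 22.6 and 24.4 TPM, Wdr5 at 22.03 and 20.7 TPM and Rbbp5 at 8.24 and 7.08 TPM. The lowest core gene was thus above the highest methyltransferase in both libraries. The median of the 3 core genes exceeded that of all 7 methyltransferases, Setd7 included, by 3.48 and 3.61 on the log2(TPM + 1) scale. The mean was 3.54 ± 0.0935 (SD, n = 2). The methyltransferase median was the value of Setd1a, itself uncertain, in replicate 1 and of Kmt2b in replicate 2. Dpy30, a further shared subunit outside the 59 symbols, was at 1344 and 1391 TPM. Wdr5 also acts in other complexes.

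The 4 listed H3K4 demethylases were also above the methyltransferases. Kdm1b (Lsd2), the demethylase known for its need in setting maternal imprints in growing oocytes, was at 52.9 and 47.6 TPM. Kdm1a (Lsd1), its broadly expressed paralog, was at 20.3 and 15.5 TPM, so that Kdm1b was 2.61-fold and 3.07-fold higher. The trimethyl demethylases Kdm5a and Kdm5b were at 10.04 and 9.21 TPM and at 3.48 and 3.85 TPM. Kdm5c, a demethylase of the same family outside the 59 symbols, was at 1.60 and 1.43 TPM, from 108 and 34 reads. Its values were below those of Kmt2c and Kmt2a, but no counting interval is given for it, so this order is not resolved. The median of the 4 listed genes exceeded that of the methyltransferases by 2.89 and 2.87 on the log2(TPM + 1) scale. The mean was 2.88 ± 0.0151 (SD, n = 2). The methyltransferase median was again that of Setd1a in replicate 1 and of Kmt2b in replicate 2. The small SD thus does not show the spread of 1 gene. The exons of Kdm1b overlap Dek on the opposite strand over 9.19% of their length.

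The genes of H3K36 and H3K79 methylation had a median near that of protein-coding genes, at 2.22 and 2.17 against 2.29 and 2.21 on the log2(TPM + 1) scale. Of these genes, 0 of 6 reached 10 TPM in both libraries, compared with 29.4% of protein-coding genes. With 6 genes this count cannot be told apart from that share. Nsd2, a dimethyltransferase of H3K36, was the highest in the mean at 8.83 and 8.10 TPM, and Nsd1, its paralog, was at 1.68 and 1.86 TPM. Setd2, which trimethylates H3K36, was at 9.19 TPM in replicate 1 and 4.90 TPM in replicate 2. Dot1l, the H3K79 methyltransferase, was at 4.53 and 4.50 TPM. The H3K36 demethylase Kdm2b, which also recruits variant PRC1 to unmethylated CpG islands, was at 2.90 and 2.70 TPM. Its paralog Kdm2a was at 0.574 and 0.649 TPM. The counting intervals of Setd2 and Nsd2 overlapped in replicate 1, whereas that of Setd2 lay below that of Nsd2 in replicate 2, so their order is not resolved.

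The H3K27, H3K9 and H3K4 sets were then compared within each library. The median of the 10 H3K27 genes was 5.03 and 4.999 on the log2(TPM + 1) scale (mean 5.01 ± 0.0226, SD, n = 2). It was 3.69 and 3.401 for the 13 H3K9 genes (mean 3.55 ± 0.207) and 1.84 and 2.20 for the 15 H3K4 genes (mean 2.02 ± 0.258). In both libraries the H3K4 median was the value of 1 gene, Kmt2e, between the lower methyltransferases and the higher core and demethylase genes. The exons of Kmt2e overlap Srpk2 on the opposite strand over 9.31% of their length. Kmt2e was higher in replicate 2, and its counting intervals in both libraries were separate. In contrast, 12 of the 15 H3K4 genes were lower in replicate 2, compared with 35 of all 58 genes. The spread of the H3K4 median, and its part in the differences below, is thus that of Kmt2e. The H3K27 median exceeded that of H3K9 by 1.34 and 1.60 (mean 1.47 ± 0.184) and that of H3K4 by 3.19 and 2.79 (mean 2.99 ± 0.281). The H3K4 median minus the H3K9 median was -1.85 and -1.197 (mean -1.53 ± 0.465). Each of these differences had the same direction in both libraries and was larger than its spread between them. No test was made on these 2 libraries, and genes of a set are not replicates. PRC1 had a median of 2.58 and 2.34, and the H3K36 and H3K79 set of 2.22 and 2.17.

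The order of the sets depended on which genes represent a mark. When only methyltransferases and demethylases were kept, the median of Ezh1, Ezh2 and Kdm6b minus that of the H3K9 enzymes was -0.96 ± 0.226 (SD, n = 2). Their difference from the H3K4 enzymes, 0.025 ± 0.122, was smaller than its spread between libraries and has no resolved direction. Of these 3 H3K27 enzymes only Ezh2 was above 2 TPM in both libraries. With the PRC1 genes added to the H3K27 set, the difference from H3K9 was -0.057 ± 0.440, again within its spread. Between enzymes that write the marks, the median of the 6 H3K9 methyltransferases exceeded that of the 7 H3K4 methyltransferases by 1.94 and 2.03. The mean was 1.98 ± 0.0608 (SD, n = 2). The H3K4 value was that of Setd1a in replicate 1 and of Kmt2b in replicate 2.

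**Figure D2:**
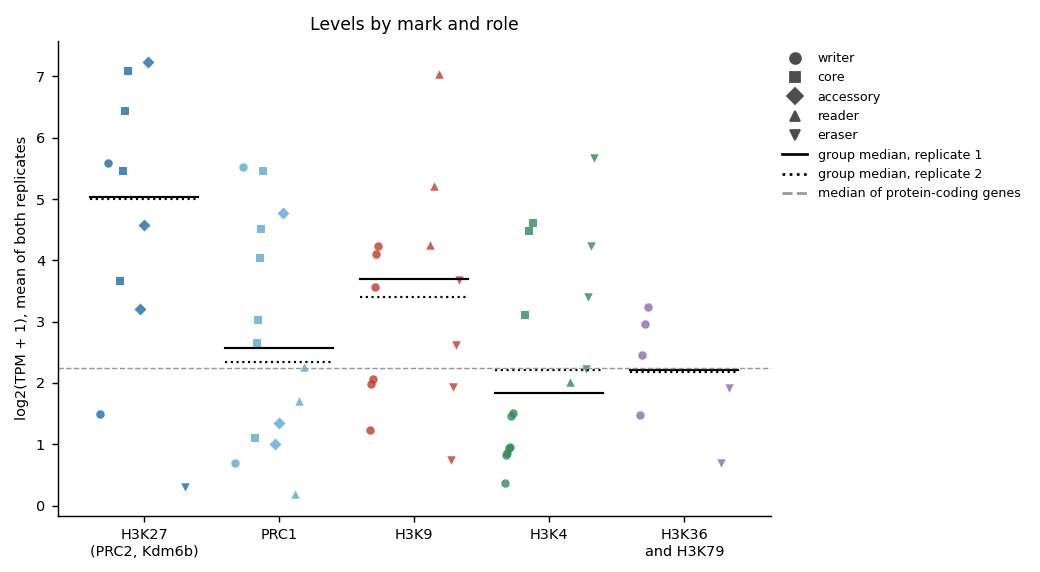
Mean log2(TPM + 1) of both replicates for each gene (vertical axis), by mark (horizontal axis) and role (symbol), with black lines for the median of each set in replicate 1 (solid) and replicate 2 (dotted) and a grey dashed line for protein-coding genes of the table. The H3K27 lines lie near 5.01 and the H3K4 lines near 2.02, and the H3K4 writers cluster below the H3K4 core and eraser genes.

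Exon length differed between the sets. Of H3K27, H3K9 and H3K4, the H3K4 genes were the longest and the lowest by median. The H3K27 genes were slightly longer than the H3K9 genes, and higher. The median summed exon length was 6188 bp for H3K27, 5823 bp for H3K9 and 10444 bp for H3K4 genes, and 12068 bp for the H3K4 methyltransferases. Across the 58 genes, Spearman's rho of exon length and level was -0.25, and it was -0.19 across 12375 protein-coding genes above 0. Among genes of at most 8000 bp, the H3K27 median (8 genes) still exceeded the H3K9 median (9 genes) by 1.95, whereas the H3K4 median (5 genes) was 0.66 above it. The part of length in these levels was not tested. The 5 short H3K4 genes were Setd1a, Wdr5, Rbbp5, Kdm1a and Kdm1b, of which only Setd1a is a methyltransferase.

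**Figure D3:**
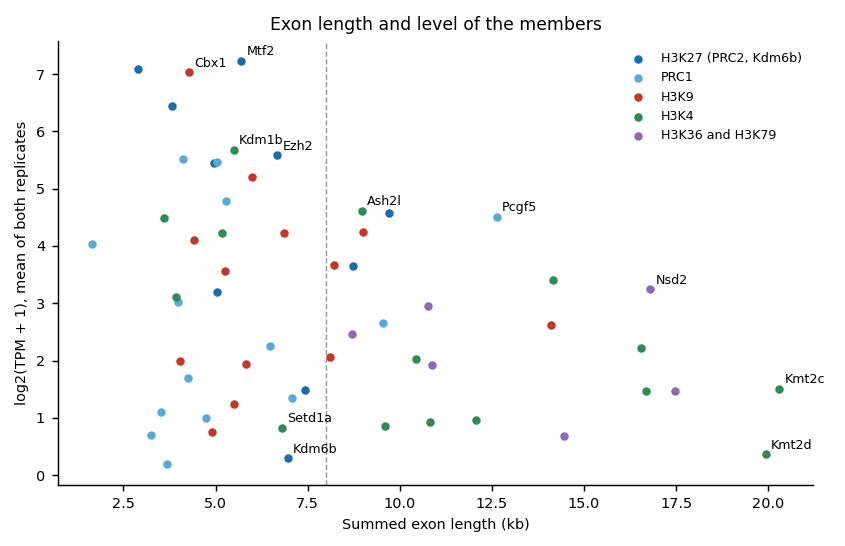
Mean log2(TPM + 1) of both replicates (vertical axis) against summed exon length in kb (horizontal axis) for the 58 genes, coloured by mark, with selected genes named and a dashed line at 8 kb. The H3K4 methyltransferases other than Setd1a lie to the right of the line and below 2 on the vertical axis.

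Pairs of related genes were compared within each library, where both genes share depth and handling. Of 19 pairs, 18 had separate counting intervals in both libraries, 17 differed more than 2-fold in the mean ratio and 5 more than 10-fold. These 5 were Rnf2 over Ring1, Ezh2 over Ezh1, Mtf2 over Phf19 (24.3 and 13.7), Phc1 over Phc2 and Rbbp7 over Rbbp4, all of them Polycomb subunits. The pairs were chosen by hand and include none among the PCGF or the Polycomb chromodomain genes, so this says nothing about Polycomb paralogs as a whole. The same shares over pairs of unrelated genes were not computed, so these counts cannot be read as a trait of related genes. Pairs of H3K9 methyltransferases differed less, with 1.51 and 1.48 for Suv39h2 over Suv39h1, 2.48 and 2.27 for Ehmt1 over Ehmt2, and 4.69 and 7.85 for Setdb1 over Setdb2. The order was the same in both libraries for all pairs except Setd1b over Setd1a, at 0.930 and 1.69, whose intervals overlapped in each. These intervals cover counting error only, and the ratio of Kdm3a to Kdm3b, at 3.34 and 1.58, varied by more than 2-fold between libraries.

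**Figure D4:**
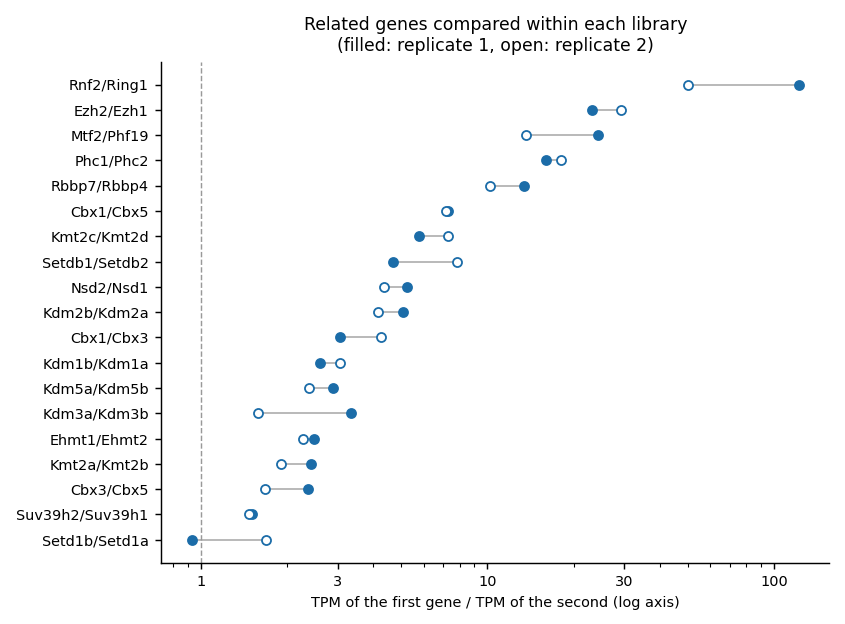
Ratio of TPM between 2 related genes within each library (horizontal log axis) for 19 pairs ordered by mean ratio, with filled circles for replicate 1 and open circles for replicate 2. Rnf2 over Ring1 is highest at 122 and 50.3, and Setd1b over Setd1a is the 1 pair on both sides of a ratio of 1.

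Between replicates, 0 of 58 genes differed more than 2-fold in either direction on the log2(TPM + 1) scale, compared with 4.31% of all genes that were higher in replicate 2 and 5.89% that were lower. Without the added 1 TPM, the ratio of replicate 2 to replicate 1 was 2.58 for Ring1 and 0.494 for Setd1a, both from few reads, and lay between 0.5 and 2 for the others. Pearson's r across the 58 genes was 0.989, compared with 0.960 across all genes, which are not independent replicates. Counting intervals did not overlap between libraries for 17 of the 49 genes with at least 100 reads over both libraries, a share of 34.7% against 35.6% of all 9278 such genes. The strongest shifts among them were in Setd2 (0.533-fold in replicate 2), Setdb2 (0.572-fold), Kdm3a (0.665-fold), Ehmt1 (1.46-fold) and Phf19 (1.46-fold). For these 5 genes a difference between genes that is smaller than this shift is not resolved.

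Other genes of the same pathways, outside the 59 symbols, were described as a list of 53 further regulators, of which 46 had a row. Of these, 34 (73.9%) reached 1 TPM in both libraries, and their median was 2.36 and 2.24 on the log2(TPM + 1) scale (mean 2.30 ± 0.0847, SD, n = 2), compared with 2.79 for the 58 genes. The highest were Dpy30, Mphosph8, a reader of methylated H3K9 in the HUSH silencing complex, at 173 and 178 TPM, and Wdr82, a SET1 complex subunit, at 34.5 and 36.04 TPM. The lowest were Bcorl1 at 0.0494 and 0.0351 TPM and the demethylase Phf2 at 0.0574 and 0.109 TPM, with 4 reads or fewer in each library. Other chromatin lists had medians of 3.01 ± 0.0629 for 10 genes of arginine methylation, 1.87 ± 0.232 for 7 genes of DNA methylation and 1.96 ± 0.166 for 29 remodeler and histone deacetylase genes (SD, n = 2).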

How the data were processed

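RNA-seq libraries of 2 E9.5 PGC samples were analysed from 1 table. The authors aligned reads to mm10 with Hisat2, counted them per gene with featureCounts and deposited TPM; versions, gene annotation, strand handling and treatment of multiply mapping reads are not given in the sources used here. The methods describe Smart-seq2 cDNA and the labels another kit, so the chemistry is uncertain. Submitters' processing notes also name Bowtie2, RSEM and R 3.4.2.

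Symbols were matched to GENCODE M21 on GRCm38 (18748 of 18877 genes). TPM multiplied by summed exon length gave whole multiples of 1 amount per library, taken as 1 read: 96.7% and 95.8% of values under 50 reads were within 0.02 of a whole number. Of the 58 genes, 56 were whole in each library, and reads of Pcgf6 and Kdm2a are approximate. Simulated counts of 18748 genes were all recovered (100%), but they used the same exon lengths. That checks the calculation only and cannot show whether these lengths match the authors' annotation. Because exon length covers all annotated isoforms, TPM of a gene using a short isoform is understated. Exact Poisson 95% intervals cover counting error only; no molecular identifiers are described, so reads of PCR copies are not independent.

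Levels were compared as log2(TPM + 1), which understates differences of low genes, and summarised as medians per library with mean ± SD. No test was made. Members and lists were chosen with earlier results of these data known. Every listed gene with a row was named, and the 3 highest and 3 lowest further regulators, of which 1 is not reported here. Promoter windows were not part of the planned comparisons; they, the Y-linked genes, Kdm6a, Kdm5c and single marker genes were chosen after their values were seen, as were the alternatives for roles and pairs. Among the row names, 17 gene symbols had been turned into dates. Alternatives were a pseudocount of 0.1, genes of at least 1 TPM, scaling over protein-coding genes, exon length, enzymes only, PRC1 added to H3K27, other detection thresholds and leaving out each replicate. Python 3.11.15, numpy 2.4.6, pandas 2.3.3, scipy 1.17.1 and matplotlib 3.10.9 were used.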

Additional observations from a re-analysis of the deposited data

How the results depend on the processing

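Alternatives gave 121 values for 33 results. With 2 replicates, leaving out either cannot move a mean by more than their SD, so this says nothing about stability; it turned the order of 1 pair, Setd1b over Setd1a, which ran from 0.930 to 1.69. A pseudocount of 0.1 gave medians of 4.97 for H3K27 and 1.66 for H3K4 and an H3K27 minus H3K4 difference of 3.32, and 1 gene, Ring1, then differed more than 2-fold between replicates. Scaling over protein-coding genes raised the medians to 5.53 for H3K27, 4.04 for H3K9 and 2.44 for H3K4. With genes of at least 1 TPM the H3K27 and H3K4 medians were 5.45 and 3.26, and the differences were 1.83 for H3K27 minus H3K9, 2.19 for H3K27 minus H3K4 and -0.36 for H3K4 minus H3K9, since low H3K4 genes leave the set. Exon lengths of at most 8000 bp gave medians of 5.52 for H3K27 and 4.23 for H3K4 and differences of 1.95, 1.29 and, reversed, 0.66; writers minus erasers over all marks except PRC1, -0.65 in the full set, also reversed, to 0.84, and H3K9 writers minus erasers rose from 0.65 to 2.23. Enzymes alone gave medians of 1.49, 2.45 and 1.46 for H3K27, H3K9 and H3K4 and differences of -0.96 (reversed), 0.025 ± 0.122 and -0.98. With PRC1 added, the H3K27 median was 3.49 and its differences -0.057 ± 0.440 from H3K9, a sign within the spread between libraries, and 1.47 from H3K4. At 5 TPM, 28 genes were detected in both libraries. Fewer or other genes enter these alternatives by construction, and any further cause was not tested. Genes with few reads, such as Cbx8, Kdm6b and Ring1, limit the ratios they enter.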
